A study of Mus musculus with 6 samples.

Results

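The transcription factors of the megakaryocyte and erythroid lineages were read as 10 genes, Gata1, Gata2, Zfpm1, Tal1, Lyl1, Runx1, Fli1, Nfe2, Gfi1b and Klf1, taken by symbol from the 25033 gene symbols that were counted. All 10 were found. They were measured in green fluorescent (GFP+) cells that had been sorted as haematopoietic stem cells from bone marrow of C57BL/6J mice aged 6 months. The mice had received stem cells exposed beforehand either to a control RNA (the control group, 3 libraries) or to an inhibitor of the microRNA miR-31-5p (the inhibitor group, 3 libraries). Both groups therefore share the transplantation, the GFP label and the sort, and no untreated or untransplanted cells are among the libraries used here. The labels read here do not say how long after transplantation the marrow was taken, or whether each library of a group stands for its own mouse. The p-values therefore measure the spread between these libraries alone, and that spread may be technical.

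These factors work as a network. GATA1 and GATA2 are zinc finger proteins that bind the same DNA motif, and GATA2, which marks stem, progenitor and mast cells, gives way to GATA1 on shared sites as megakaryocytes and red cells mature. Zfpm1 encodes FOG1, the cofactor that GATA1 needs in both lineages. TAL1 and LYL1 are closely related basic helix-loop-helix proteins that join GATA factors on DNA through LMO2 and LDB1. RUNX1 and the ETS protein FLI1 favour megakaryocytes, the erythroid factor KLF1 opposes FLI1, the bZIP protein NF-E2 (its larger subunit encoded by Nfe2) drives platelet release, and the repressor GFI1B is needed in both lineages.

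The libraries held 19866738 to 21245861 counts in the control and 16873188 to 19496200 in the inhibitor libraries, so that 3 counts corresponded to 0.141 to 0.178 CPM (read counts scaled to the library's total). Intervals and floors from counts cover counting error only. The first principal component (70.8% of the variance) parted the groups, and the second (9.5%) set control library 1 off from controls 2 and 3. Counts of the ribosomal RNA precursor Rn45s were 20039, 3667 and 61656 in control libraries 1 to 3 and ran from 1784 to 3145 in inhibitor libraries. Control libraries 1 and 3, which held the most, are left out together in an alternative fit below. Kit, a gene of stem and progenitor cells, was plentiful (378.4 to 417.7 CPM). So were Cd34 (348.3 to 398.2 CPM) and Flt3 (180.0 to 210.7 CPM), which mark progenitors and are low or absent in adult mouse long-term stem cells. Of genes that define those stem cells, Procr was at 0.949 to 1.18 CPM in controls and at 6.38 to 8.26 CPM with the inhibitor. Hlf was at 6.4 to 7.6 CPM in controls and at 3.4 to 4.2 CPM with the inhibitor. Mecom was at 0.236 to 0.749 CPM in all libraries, and Hoxb5 had no count. Genes of myeloid cells were abundant, with Lyz2 at 2200 to 2322 CPM in controls and at 1073 to 1156 CPM with the inhibitor. So were some genes of mast cells. The carboxypeptidase gene Cpa3 was at 511.1 to 576 CPM in controls and at 607.9 to 678.8 CPM with the inhibitor. The chymase gene Cma1 was at 322.1 to 374 CPM in controls and at 368.1 to 387.1 CPM with the inhibitor. The sort label is thus not matched by all of these markers. In such bulk libraries, fewer cells of a type and less RNA per cell cannot be told apart. The precursor gene of the target, Mir31, had 0 counts in all 6 libraries, and an mRNA library does not measure the mature microRNA.

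The microRNA is shown because its seed decides which transcripts it can pair with, and the sites because 2 of the factors hold one that reaches 7 bases. The first line is RefSeq's mature miR-31-5p (GRCm38.p6, chr4:88910614-88910635, minus strand), 5′ to 3′, with the seed, bases 2 to 8, in capitals. The lines under it are stretches of the longest 3′ UTRs of Lyl1 and Tal1 in GENCODE release M21, with the bases complementary to the seed, or to its first 6 bases, and the A that follows them in capitals.
miR-31-5p: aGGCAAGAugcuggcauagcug
Lyl1 8mer site: gccagtgtccTCTTGCCAgggccgaggc
Tal1 7mer site: gatccatccagCTTGCCAgctgctgtgg
The Lyl1 UTR, 408 bases long, was the only one of the 10 with a match to the whole seed. The last 6 bases of that match begin at base 176. Tal1, with a UTR of 3030 bases, had 1 site of the shorter 7mer kind at base 498 and 4 matches of 6 bases. Gata1 and Runx1 had 1 match of 6 bases each. The UTRs of Gata2, Fli1, Nfe2, Gfi1b, Klf1 and Zfpm1 held none of these letters, and for Zfpm1 that annotation gives a UTR of 60 bases only. Among 12266 tested genes with an annotated 3′ UTR, 13.85% had a match to the whole seed and 22.48% a match of at least 7 bases. A match is a description of the letters and shows no pairing.

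All 10 genes passed the filter on low counts and were compared between the groups. In the inhibitor group 6 were higher (Gata1, Zfpm1, Gfi1b, Nfe2, Runx1 and Tal1), 3 were lower (Gata2, Fli1 and Lyl1), and Klf1 did not pass the threshold. The background of calls was high: at an adjusted p of 0.05, 40.5% of the 12978 genes in the test were called, 20.4% higher and 20.1% lower. The 9 of 10 among the factors, which were chosen with earlier results of these data known, stand against that rate. The factors' median log2 change was 0.21 beside -0.01 over all tested genes. Inhibitor and control libraries did not overlap for any of the 10 genes, 6 above and 4 below, which held for 52.4% of all tested genes. Klf1 is among the 4 below, but it passed the filter through the control libraries, so its place there is a description only. The sizes fell into steps. Gata1, Zfpm1 and Gfi1b were 1.89- to 1.99-fold higher, Nfe2 1.33-fold, and Runx1 and Tal1 1.17- and 1.14-fold, while Gata2, Fli1 and Lyl1 were at 0.781, 0.875 and 0.876 of their control level. Gata1, Zfpm1, Gfi1b, Nfe2 and Gata2 kept their calls under every alternative that was run, whereas the calls of Fli1, Runx1, Tal1 and Lyl1 were lost on leaving out certain single libraries.

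**Figure D1:**
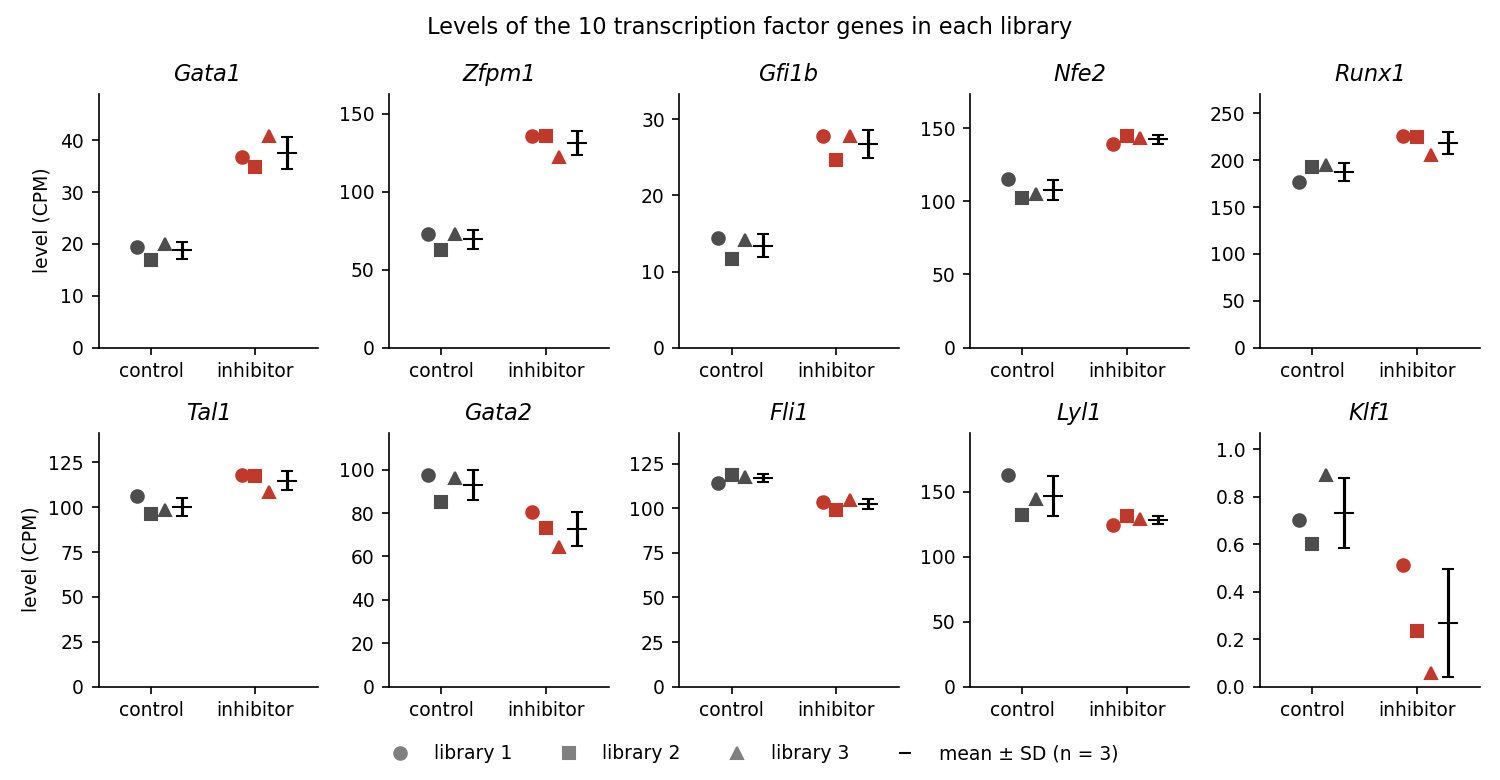
Level of each factor gene in CPM (vertical axis, linear, from 0) in the 3 control (grey) and 3 inhibitor (red) libraries, with the mean and SD beside them. Gata1, Zfpm1 and Gfi1b sit about 2-fold higher in every inhibitor library, and Klf1 stays under 1 CPM throughout.

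Gata1 (chromosome X, 7959260 to 7976663, mm10) is the master regulator of red cell and megakaryocyte maturation. Control libraries 1 to 3 held 19.4, 16.9 and 20.1 CPM of it, and inhibitor libraries 1 to 3 held 36.9, 34.8 and 40.9 CPM. The lowest inhibitor library thus lay well above the highest control. Means were 18.8 ± 1.68 and 37.5 ± 3.1 CPM (± SD, n = 3 libraries each), a 1.99-fold rise. The log2 change was 1.00 ± 0.10 (± SE; edgeR quasi-likelihood test, Benjamini-Hochberg adjusted p = 8.22e-07). Only 5.7% of tested genes had a larger change.

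Zfpm1 (chromosome 8, 122281856 to 122337862), whose product FOG1 binds GATA1 directly, moved with it. It was measured at 73.1, 62.6 and 72.9 CPM in the controls and at 135.8, 135.7 and 122.3 CPM in the inhibitor libraries. Control library 2 was the lowest of the controls for Zfpm1, as it was for Gata1 and Gfi1b. The rise was 1.89-fold, or 0.92 ± 0.07 on the log2 scale (edgeR adjusted p = 6.29e-08), the smallest p-value of the 10 genes.

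Gfi1b (chromosome 2, 28609450 to 28621982) encodes a zinc finger repressor that recruits LSD1 and CoREST. Its 3 control libraries held 14.5, 11.7 and 14.1 CPM and its 3 inhibitor libraries 27.8, 24.7 and 27.8 CPM. The rise (log2 change 1.00 ± 0.11, edgeR adjusted p = 2.62e-06) equalled that of Gata1 within the SE of either. Without control libraries 1 and 3 together, which leaves 1 control that is assumed to vary as the inhibitor libraries do, the changes of Gata1, Zfpm1 and Gfi1b were 1.15, 1.06 and 1.19.

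The promoters of these 3 genes are given because the genes rose by a like factor, and because the GATA motif can be looked for in them directly. Each line is RefSeq's sequence from 250 bases before to 50 bases after a transcription start (GRCm38.p6), 5′ to 3′ on the gene's own strand, with matches to the GATA motif (the words AGATAA and AGATAG, and also TGATAA as well as TGATAG, on either strand) in capitals.
Gata1 promoter, chrX:7967861-7968160, minus strand: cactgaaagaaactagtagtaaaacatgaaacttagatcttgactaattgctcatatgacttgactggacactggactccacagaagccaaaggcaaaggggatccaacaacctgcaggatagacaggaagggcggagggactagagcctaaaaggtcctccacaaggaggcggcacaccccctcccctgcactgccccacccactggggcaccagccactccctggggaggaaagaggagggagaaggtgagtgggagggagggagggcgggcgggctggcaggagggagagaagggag
Zfpm1 promoter, chr8:122281891-122282190, plus strand: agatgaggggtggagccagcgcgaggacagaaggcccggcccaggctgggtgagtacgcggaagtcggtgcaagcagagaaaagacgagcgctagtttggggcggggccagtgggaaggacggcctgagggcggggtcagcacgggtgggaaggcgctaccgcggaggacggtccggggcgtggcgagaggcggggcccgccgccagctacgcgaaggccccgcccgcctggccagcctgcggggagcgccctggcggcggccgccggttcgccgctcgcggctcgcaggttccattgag
Gfi1b promoter, chr2:28621933-28622232, minus strand: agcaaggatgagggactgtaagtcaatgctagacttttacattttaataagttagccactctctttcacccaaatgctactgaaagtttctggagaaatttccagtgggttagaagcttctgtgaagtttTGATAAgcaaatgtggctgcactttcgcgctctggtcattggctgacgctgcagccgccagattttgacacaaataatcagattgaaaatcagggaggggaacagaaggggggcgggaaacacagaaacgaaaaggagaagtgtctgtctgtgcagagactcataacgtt
The Gfi1b window held 1 match, beginning 120 bases before the start, and the windows of Gata1 and Zfpm1 held none. The 3 windows also differed in base composition, with 57.3, 73.7 and 44.3% G and C in Gata1, Zfpm1 and Gfi1b. Among the other members with an entry, 1 match lay in the Klf1 window (80 bases before the start) and 1 in the first of the 2 Tal1 windows (205 bases before), and none in those of Gata2, Runx1 or Lyl1. Fli1 and Nfe2 had no entry. Of 32851 promoters of this length, 29.76% held the motif, as did 19.22% of the 13074 that belong to tested genes. Sequence outside these windows, enhancers included, was not examined.

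Nfe2 (chromosome 15, 103248212 to 103258403) was one of the most abundant of the factors. It was at 115.2, 102.1 and 105.0 CPM in controls and at 139, 144.7 and 143.2 CPM with the inhibitor. The inhibitor libraries lay close together, with an SD of 2.93 CPM against 6.89 CPM in the controls. Nfe2 rose 1.33-fold (log2 change 0.41 ± 0.06, edgeR adjusted p = 6.59e-05).

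Runx1 (chromosome 16, 92601466 to 92826074), needed for the first blood stem cells and for megakaryocyte maturation, was at 176.8, 192.2 and 194.5 CPM in controls and at 226.0, 225.3 and 205.2 CPM with the inhibitor. Inhibitor library 3 was the closest to the controls, and the gap was within the SD of the inhibitor group. The change was 0.22 ± 0.06 (edgeR adjusted p = 0.00819). It lost its call without inhibitor library 1 (adjusted p = 0.0512) or 2 (0.051, range over its alternatives 0.00147 to 0.0512). Reads were counted without a stated strand, and 106 bases of Runx1 exons overlap the antisense gene Gm26626.

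Tal1 (chromosome 4, 115056426 to 115071755) was at 106.05, 96.2 and 98.7 CPM in controls and at 118.1, 117.6 and 108.6 CPM in inhibitor libraries. Control library 1 and inhibitor library 3 differed by less than the SD of either group. Its change of 0.19 ± 0.06 had an edgeR adjusted p = 0.0189. The call was lost on leaving out control library 2 or 3 or inhibitor library 1 or 2, where the adjusted p was 0.0584, 0.0652, 0.0861 and 0.0857 (range over its alternatives 0.000203 to 0.0861).

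Among the genes that fell, Gata2 (chromosome 6, 88193891 to 88207032) changed most. Its levels were 97.6, 85.2 and 96.2 CPM in controls and 80.3, 72.9 and 64.5 CPM in inhibitor libraries. The highest inhibitor library lay under the lowest control by less than the SD of either group. Gata2 fell by 0.36 ± 0.08 on the log2 scale, from 93.0 ± 6.81 to 72.6 ± 7.9 CPM (n = 3 each, edgeR adjusted p = 0.00247). Without control libraries 1 and 3 the change was -0.23.

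Fli1 (chromosome 9, 32422204 to 32543432), an ETS factor of megakaryocytes and endothelium, had the most even control libraries of the 10 genes. It was at 114.2, 118.7 and 117.8 CPM in controls and at 103.6, 98.9 and 104.4 CPM with the inhibitor. The fall of 0.19 ± 0.06 (edgeR adjusted p = 0.0119) lost its call without control library 3 (adjusted p = 0.0516) or inhibitor library 2 (0.0699, range over its alternatives 0.000473 to 0.0699).

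Lyl1 (chromosome 8, 84701423 to 84704716), the holder of the 8mer site shown above, was measured at 163.0, 132.3 and 144.1 CPM in controls and at 124.6, 131.2 and 129 CPM in inhibitor libraries. Control library 2 and inhibitor library 2 were nearly level, and control library 1 was the highest. The change of -0.19 ± 0.07 had an edgeR adjusted p = 0.0382. Without control library 1 it was -0.11 (adjusted p = 0.0688), and without control libraries 1 and 3 at -0.05 (adjusted p = 0.629, with 1 control left and the spread taken from the inhibitor libraries alone; range over its alternatives 0.00665 to 0.629). Leaving out control library 3 or any single inhibitor library also ended the call, as did DESeq2 (adjusted p = 0.0505). Its sign was negative under every alternative run, but the call was lost under 7 of 13, that fit with 1 control among them.

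Klf1 (chromosome 8, 84901982 to 84905291), the factor of adult globin genes, was close to the limit of detection. Its counts were 14, 12 and 19 in the controls and 10, 4 and 1 in the inhibitor libraries. Levels were 0.599 to 0.893 CPM and 0.059 to 0.513 CPM, so inhibitor library 3 lay under the floor of 3 counts. It passed the filter through the control libraries, where all 3 reached 0.508 CPM against 1 inhibitor library. The interval and p-values of Klf1 are therefore given as a description and not as support for a fall. The summed counts of 45 and 15, scaled by library size, gave a control to inhibitor ratio of 2.63, with an exact 95% counting interval of 1.44 to 5.07. The log2 change of -1.38 ± 0.58 did not pass (edgeR adjusted p = 0.0568). It passed without inhibitor library 1 (-2.27, adjusted p = 0.0204) and with limma-voom (-1.65, adjusted p = 0.0304, range over its alternatives 0.0204 to 0.395).

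**Figure D2:**
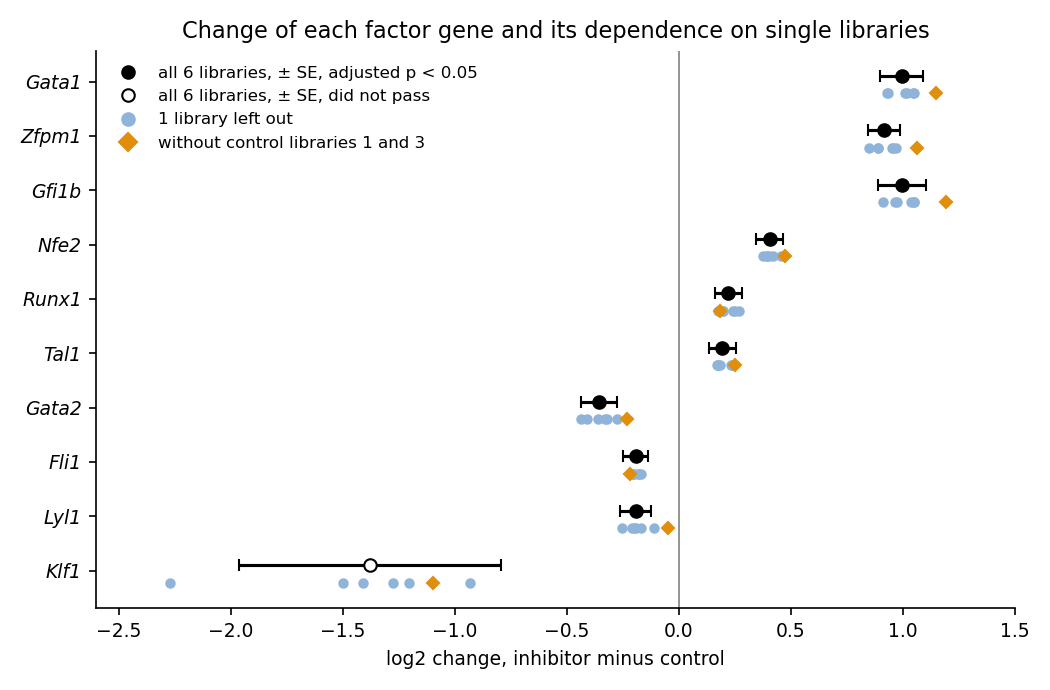
Log2 change of each factor gene (horizontal axis) with its SE from all 6 libraries (black, filled where the adjusted p is under 0.05), from fits with 1 library left out (blue) and from the fit without control libraries 1 and 3 (orange). The changes of Gata1, Zfpm1 and Gfi1b stay between 0.85 and 1.19 and those of Lyl1 run from -0.25 to -0.05, while the changes of Klf1 spread from -2.27 to -0.93.

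Since genes differ in length, the factors were ordered by CPM per kilobase of the longest transcript. In the control group Lyl1 (81.3 ± 8.58 CPM per kilobase, SD, n = 3) and Nfe2 (63.3 ± 4.06) were highest, followed by Fli1 (36.8 ± 0.74), Gata2 (29.7 ± 2.17), Runx1 (26.4 ± 1.36), Tal1 (23.8 ± 1.21), Zfpm1 (17.4 ± 1.5), Gata1 (9.88 ± 0.88), Gfi1b (7.36 ± 0.83) and Klf1 (0.496 ± 0.101). Neighbours in this order did not overlap between libraries, apart from Gata2 with Runx1 and Runx1 with Tal1. In the inhibitor group Nfe2 (83.9 ± 1.72 CPM per kilobase) stood above Lyl1 (71.2 ± 1.88), with no overlap. Zfpm1 (32.8 ± 1.94) had moved from the seventh to the third place, where its libraries overlapped those of Fli1 (32.2 ± 0.94), and those of Fli1 overlapped those of Runx1 (30.7 ± 1.65). Gata2 (23.2 ± 2.52) had moved from the fourth to the seventh place, next to Gata1 (19.7 ± 1.63), and these were no longer separated. Tal1 (27.2 ± 1.27), Gfi1b (14.7 ± 0.99) and Klf1 (0.182 ± 0.155) held their places. Length is that of 1 transcript, and the isoforms in use were not measured.

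Ratios between factors within a library do not depend on how libraries are scaled. Ratios of 5 pairs were computed, and p-values, adjusted over all 5, come from an exact 2-sided permutation test over the libraries, in which 3 against 3 cannot give a p under 0.1. For Gata1 over Gata2 counts, the ratio was 0.199, 0.198 and 0.209 in the controls and 0.459, 0.477 and 0.633 with the inhibitor. The controls lay close together, and inhibitor library 3 was the highest, combining the highest Gata1 with the lowest Gata2 level. The log2 ratio differed by 1.36, a 2.56-fold rise, from -2.31 ± 0.04 to -0.95 ± 0.25 (± SD, exact permutation p = 0.1, adjusted over the 5 pairs 0.125). Against Spi1, which encodes the myeloid factor PU.1 and is a known antagonist of GATA1, the Gata1 ratio also separated the groups. It was 0.080, 0.085 and 0.097 in the controls and 0.178, 0.164 and 0.207 with the inhibitor, a log2 difference of 1.07 (exact permutation p = 0.1, adjusted 0.125). Spi1 itself had a log2 change of -0.07 ± 0.07 (edgeR adjusted p = 0.419).

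Other pairs moved less, or were less well measured. The ratio of Gata1 to its cofactor gene Zfpm1 was 0.266, 0.270 and 0.275 in controls and 0.271, 0.256 and 0.334 with the inhibitor, and here the groups overlapped. Its log2 difference was 0.08 (exact permutation p = 0.8, adjusted 0.8) and turned to -0.03 without inhibitor library 3, which does not show that the ratio stayed the same. Tal1 counts came to 0.651, 0.727 and 0.685 of Lyl1 counts in controls and to 0.948, 0.896 and 0.842 in inhibitor libraries. The groups of this pair did not overlap, with a log2 difference of 0.38 (exact permutation p = 0.1, adjusted 0.125). The ratio of Klf1 to Fli1 is given as a description, since Klf1 passed the filter through the controls. The permutation test was run on it and counted in the adjustment over all 5 pairs, but no p-value is drawn on here. The log2 difference of this ratio was -1.72, over counts of 1 to 19 for Klf1, and -0.85 without inhibitor library 3.

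**Figure D3:**
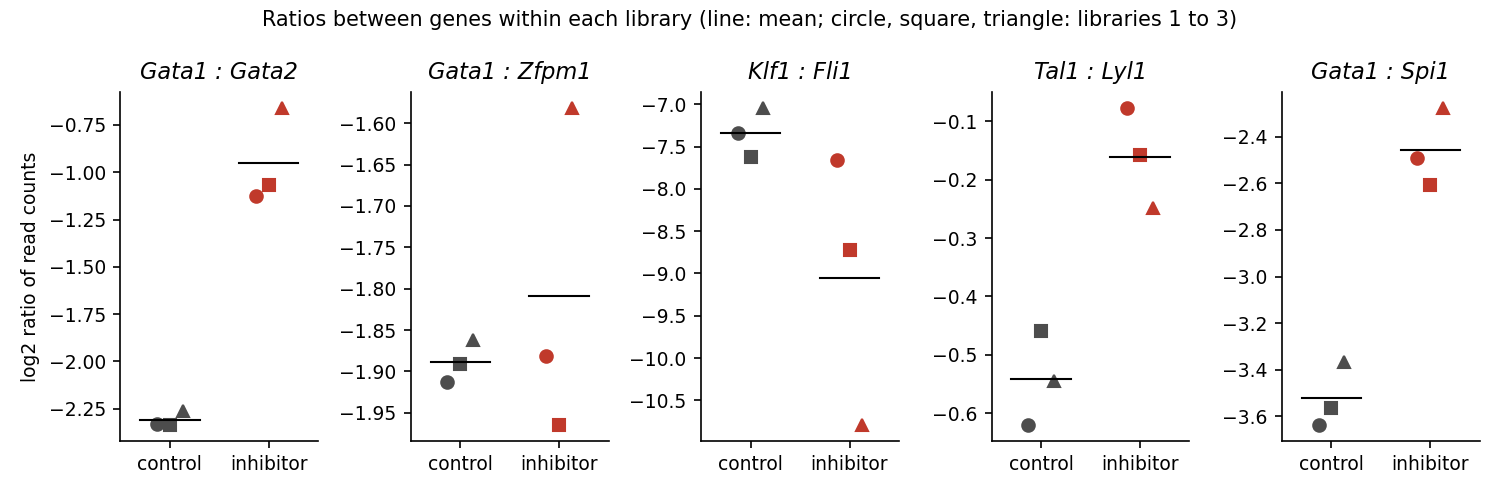
Log2 ratio of read counts of 5 gene pairs within each library (vertical axis, own scale for each pair), with the group mean as a line. The Gata1 to Gata2 ratio separates the groups by 1.36, while the Gata1 to Zfpm1 ratio overlaps between them.

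Genes for the proteins these factors assemble with were called at the rate of all tested genes, 6 of 15 beside 40.5%. Of the 15 partner genes tested (the LMO2 and LDB1 bridge, E proteins, SSBP and ETO family proteins, CBF beta and small MAF proteins), 3 were higher, 3 lower and 9 did not pass (median log2 change 0.04). Among those higher were Cbfa2t3 and Cbfa2t2, which encode the ETO family corepressors ETO2 and MTGR1, and Tcf12, the E protein HEB. Cbfa2t3 was at 123.6, 130.4 and 128.6 CPM in the controls and at 197.5, 208.0 and 203.4 CPM in the inhibitor libraries. This was a change of 0.67 ± 0.05 (edgeR adjusted p = 1.07e-07), with groups far apart, and Cbfa2t2 rose by 0.40 ± 0.07. Tcf12 rose by 0.16 ± 0.06, near the threshold (edgeR adjusted p = 0.0481). Lmo2, whose product bridges TAL1 and GATA factors, fell. It was at 286.8, 246.1 and 254.4 CPM in the controls and at 194.2, 183.3 and 199.5 CPM with the inhibitor, a change of -0.45 ± 0.06 (edgeR adjusted p = 4.76e-05). Its partner gene Ldb1 changed by -0.20 ± 0.07 and Ssbp4 by -0.58 ± 0.15, and for both of them control library 1 was the highest of all libraries. The E protein genes Tcf3 (-0.06 ± 0.06) and Tcf4 (0.08 ± 0.07), the RUNX1 partner gene Cbfb (0.04 ± 0.05), the NF-E2 partner genes Mafg (0.11 ± 0.07), Mafk (0.10 ± 0.09) and Maff (0.20 ± 0.19), and Lmo4, Ssbp2 and Ssbp3 (-0.09, -0.14 and -0.03) did not pass.

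**Figure D4:**
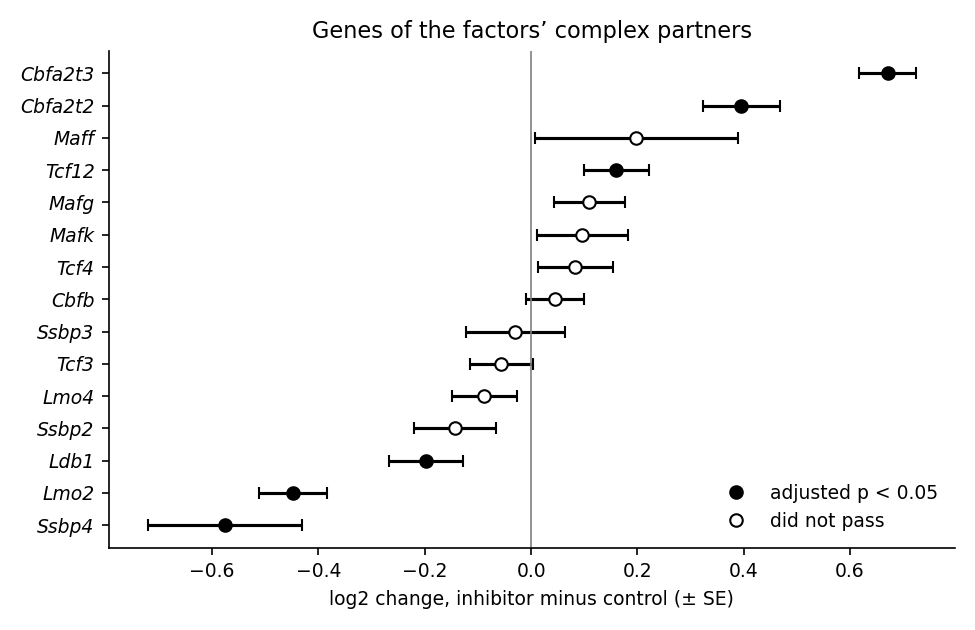
Log2 change with its SE (horizontal axis) of the 15 genes for complex partners, filled where the edgeR adjusted p is under 0.05. Cbfa2t3 (0.67) lies at the upper end and Ssbp4 (-0.58) and Lmo2 (-0.45) at the lower.

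The same background, 40.5% called (20.4% higher and 20.1% lower), stands beside the counts of the next 3 lists, none of which was tested against other genes. Of 21 tested genes for the NuRD and LSD1-CoREST corepressors that FOG1 and GFI1B recruit, 1 was higher, 5 lower and 15 did not pass (median log2 change 0.02). The NuRD genes Gatad2b (0.23 ± 0.06), Chd3 (-0.32 ± 0.07) and Mta2 (-0.18 ± 0.06) had the smallest p-values. The count of higher genes was 2 without control library 1, alone or with control library 3. The count of lower genes was 2 or 3 without control library 3 or any of the inhibitor libraries. Of 12 tested paralogues of the factors, 3 were higher, 5 lower and 4 did not pass (2 or 3 lower without control library 2 or 3 or any inhibitor library). Gfi1, the myeloid and lymphoid sister gene of Gfi1b, went against it, from 38.5 ± 3.75 to 23.2 ± 2.52 CPM, a change of -0.73 ± 0.10 (edgeR adjusted p = 3.54e-05). Klf2 rose by 0.65 ± 0.11 and Nfe2l2, the gene of the stress factor NRF2, fell by 0.27 ± 0.05. Of 15 tested other regulators of these lineages, 3 were higher, 5 lower and 7 did not pass (median log2 change -0.07). Mef2c rose by 0.43 ± 0.07, and Myc fell by 0.66 ± 0.06, from 181.7 ± 2.98 to 114.8 ± 5.83 CPM.

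Marker genes of the 2 lineages, megakaryocyte and erythroid, were read beside the 40.5% of all tested genes that were called (20.4% higher). Whether the factors control these genes here was not tested. The lists were chosen with earlier results of these data known, and were not tested against each other. Of 26 megakaryocyte and platelet genes tested, 25 were higher, none lower and 1 did not pass (median log2 change 1.16), and their summed level went from 3091 to 3399 CPM in controls to 7578 to 7669 CPM in inhibitor libraries. Thbs1, F2r and F2rl2 had the smallest p-values, with changes of 2.33, 1.64 and 1.56. Of the 38 erythroid symbols 37 were listed and 21 tested, of which 10 were higher, 1 lower (Cpox; 2 without control library 1 or inhibitor library 3, 0 without inhibitor library 1) and 10 did not pass (median log2 change 0.22). Their sum was 919.8 to 973.9 CPM in controls and 1066 to 1072 CPM with the inhibitor. Hba-a2, an alpha globin gene, had 3, 5 and 0 counts in the controls and 116, 81 and 104 with the inhibitor, and the beta globin gene Hbb-bs 7, 10 and 10 against 75, 61 and 53. Reads of globin gene copies can be split between them, which leaves these counts uncertain, and the means with the inhibitor were 5.61 and 3.51 CPM. The membrane skeleton gene Epb41, which many cell types use, rose by 0.64 ± 0.05. The haem synthesis gene of red cells, Alas2, had 2 or 3 counts in every library, and the anion exchanger gene Slc4a1 had 0, apart from 2 counts in inhibitor library 3. The rise of Gata1 was thus seen beside abundant megakaryocyte genes (Thbs1 at 621.2 and F2r at 875.3 CPM with the inhibitor) and beside Alas2 and Slc4a1 at or under the floor, with Klf1 under 1 CPM.

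Mast cells, basophils and eosinophils use GATA factors too, and markers of these cells were present. The counts of marker genes called again stand beside 40.5% of all tested genes. Of 16 tested markers 6 were higher, 4 lower and 6 did not pass (median log2 change 0.08). The sum of all 21 ran from 1599 to 1651 CPM in controls and from 1716 to 1807 CPM in inhibitor libraries. The mast cell chymase gene Mcpt4 rose by 0.61 ± 0.05, Cyp11a1 fell by 0.74 ± 0.09, and Gzmb, also a gene of cytotoxic and plasmacytoid cells, fell from 59.2 ± 5.96 to 12.3 ± 1.78 CPM. The eosinophil peroxidase gene Epx had 1, 0 and 0 counts in the controls and 6, 3 and 4 with the inhibitor. Markers of neutrophils and monocytes summed to 10533 to 11480 CPM in controls and to 8436 to 8592 CPM with the inhibitor. Lyz2 was down by 1.02 ± 0.05, and S100a8 and S100a9 were up by 1.62 and 1.63. Of the 17 in the test, 6 were higher, 8 lower and 3 did not pass (median log2 change -0.04). Stem and progenitor markers summed to 1062 to 1097 CPM in controls and to 1171 to 1213 CPM with the inhibitor, and 4 of the 12 in the test were higher and 2 lower. Vldlr, Procr and Slamf1 rose by 1.32, 2.82 and 1.70 on the log2 scale. The stem cell factor gene Hlf fell by 0.92 ± 0.17, from 6.42 to 7.56 CPM in controls to 3.37 to 4.21 CPM with the inhibitor, with no overlap (edgeR adjusted p = 0.000423), and Mecom had a change of -0.70 ± 0.49 (adjusted p = 0.263). Lymphoid markers summed to 70.0 to 77.7 CPM and 84.5 to 85.5 CPM, and endothelial and stromal markers to 139.9 to 152.3 CPM and 161.2 to 174.8 CPM. Of 7 lymphoid markers tested 1 was higher (Il7r, 1.17) and 4 lower (among them Dntt, -1.75, and Cd79b, -0.85), and of 4 endothelial and stromal markers Pecam1 was higher (0.25) and Pdgfrb lower (-0.41), while Kdr (0.11) did not pass. The part of these cell types in the changes of the factors was not tested.

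Genes with the most similar course over the 6 libraries were sought for Gata1 and Gata2 among 10392 genes with a mean of at least 100 counts. Likeness was the root mean square difference of log2 CPM, each gene centred on its own mean. For Gata1 these were Smim3 (0.0483), Gfi1b (0.0535) and Mir22hg (0.0539), with log2 changes of 1.02, 1.00 and 1.02. For Gata2 they were Per2, Map11 and Igsf8 (0.0288, 0.0290 and 0.0295), with changes of -0.38, -0.37 and -0.41. With 6 libraries in 2 groups, such a list mainly gathers genes with a group difference of the same size.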

How the data were processed

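RNA had been extracted with Trizol and made into mRNA libraries with the VAHTS mRNA-seq V3 kit, per the labels. The authors deposited, for each library, a read count per gene symbol (not normalised), an RPKM value and the length of the longest transcript, per the file headers. Per the submitters' processing notes, the tools include bcl2fastq 2.20 and the genome is mm10. No source used here names the aligner, the counter or the strand setting. The deposited RPKM served only as a check: it implied library totals 0.22 to 8.68% above the summed counts.

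Genes were kept by filterByExpr (minimum count 10, minimum total 15), given TMM factors (0.985 to 1.008) and compared in edgeR 4.0.16 (robust quasi-likelihood, R 4.3.3), inhibitor against control, with Benjamini-Hochberg adjustment over all 12978 genes and a threshold of 0.05. SEs come from the fitted weights and the quasi-dispersion. CPM are TMM-scaled. The fit was tested on simulated data in which few genes changed. It recovered 17 of 50 genes changed 1.25-fold, 44 of 50 changed 1.5-fold and 50 of 50 changed 2-fold. Of 12668 unchanged genes 16 were called. Changes smaller than 1.25-fold, such as those of Runx1, Tal1, Fli1 and Lyl1, were not simulated. Replicates of a group differed by more than counting noise (chi-square per degree of freedom 3.04 to 16.78), so each library counted once.

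The members and gene lists were chosen with earlier results of these data known. The text names all members and partner genes. Of each other list it names the 3 tested genes with the smallest p and a mean of at least 20 counts. Genes for the likeness, the pairs and the check of the sort label are also named. Cpox, Epx, Alas2, Slc4a1, Cpa3, Cma1, Fcer1a and Tpsab1 were chosen after their values were seen. One gene that this rule names is not reported here. Alternatives were RLE factors, no or a stricter filter (at least 10 counts on average and 1 CPM throughout a group), a replicate block, DESeq2 1.42.0, limma-voom (limma 3.58.1), leaving out libraries, an adjusted p of 0.1 and a pseudocount.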

Additional observations from a re-analysis of the deposited data

How the results depend on the processing

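The count of 5259 genes stayed within 1.5 times under all alternatives run (4045 without control libraries 1 and 3, 6365 at an adjusted p of 0.1). Of the 129 values of the 10 members under alternatives none changed direction, 111 stayed on their side of the threshold, 15 lost and 3 gained a call, and Klf1 was not tested under the stricter filter. With 1 library left out, the changes that lost a call ran from -0.18 to -0.17 for Fli1, 0.20 to 0.20 for Runx1, 0.17 to 0.19 for Tal1 and -0.21 to -0.11 for Lyl1, and Klf1 passed at -2.27 (range -2.27 to -0.93). Over all such fits the ranges were -0.21 to -0.17 for Fli1, 0.18 to 0.27 for Runx1, 0.17 to 0.24 for Tal1 and -0.25 to -0.11 for Lyl1. Lyl1 was at -0.18 with DESeq2 and -0.0489 without control libraries 1 and 3 (the lone control is assumed to vary as the inhibitor libraries do), and Klf1 at -1.65 with limma-voom; the cause was not tested. The Gata1 to Zfpm1 ratio reversed without inhibitor library 3 (-0.0345, highest 0.157 without inhibitor library 2). Same-numbered libraries are not said to be paired, and their deviations correlated at 0.058, 0.008 and 0.037, with not every library closest to its own number. The replicate block called 5673 genes and passed Klf1 (-1.42, adjusted p = 0.0413) and changed no other call of a member. List counts moved by over 1.5 times in 15 of 286 cases, in the corepressor, paralogue and erythroid lists. Depth limits Klf1 and the globin genes.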
